A study of Drosophila melanogaster with 28 samples.

Results

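Trimethylation of lysine 9 of histone H3 (H3K9me3) was compared between germline and cyst tumours of the Drosophila melanogaster testis. The comparison used the 8 H3K9me3 libraries of the 28 in the series: 2 preparations of germline and 2 of cyst tumours. Each gave an input and an immunoprecipitated (IP) library, all run on 1 flow cell. For each preparation the IP signal was set over the input signal of the same replicate number, and the values are given as log2 IP/input. Germline tumours were driven by nanos and cyst tumours by traffic jam, and in both the driver expressed the JAK-STAT ligand Unpaired (Upd) and a GFP-tagged histone H3. An anti-GFP antibody with protein A-MNase released chromatin from the tagged cells, part was kept as input, and the rest was precipitated with anti-H3K9me3.

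The germline flies carried y[1] w[1118] and P{hs70FLP}, the driver P{w[+mC]=GAL4::VP16-nanos.UTR} over UAS-Upd, and UAS-FRT-H3-GFP-FRT-H3-mKO over a wild-type (+) chromosome. Cyst flies carried w[1118], traffic Jam-GAL4 over UAS-Upd, and the same histone cassette. The strains therefore differ in more than the driver, so the background of the strain and the cell type cannot be told apart. Testes of several animals were pooled for a preparation, and the labels do not say whether replicates came from separate crosses. The p-values therefore reach no further than these preparations. Those of single features, and their SEs, also draw on variance pooled over the other features. In a pool, the share of cells that carry the mark and its level per cell cannot be told apart.

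H3K9me3 is laid down by the methyltransferases Su(var)3-9, eggless and G9a and is bound by HP1. In flies it marks the repeats around the centromeres, the Y, most of chromosome 4 and silenced mobile elements. In the germline, piRNAs direct it to mobile elements, and in the female germline eggless also keeps the male factor gene Phf7 silent.

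Promoters were windows of 500 bp on each side of the annotated gene start, gene bodies ran from start to end, and intergenic bins were 5-kb bins with no gene. Features were tested where the 8 libraries averaged 10 fragments or more, which left 13708 of 13968 promoters, 13705 of 13968 gene bodies and 4513 of 5194 intergenic bins. Base composition differed along with the result, so 5 upstream sequences and 1 intergenic stretch are shown (RefSeq, Release 6 of the genome, dm6). Those of foraging (for), spire (spir) and Proc-R lie at promoters with higher log2 IP/input in germline tumours, the first pair AT-rich and Proc-R GC-rich. PVRAP and CG3222 are 2 of the 4 named promoters with higher values in cyst tumours, which did not pass the test. Those 4 have the largest differences among promoters with 50 or more fragments, no overlap and an unadjusted p under 0.05. Each promoter stretch is the 250 bases upstream of the start, 5′ to 3′, and capitals mark runs of 6 or more of 1 base (AAAAAA or TTTTTT, either strand).
for, chr2L:3656954-3657203, minus strand: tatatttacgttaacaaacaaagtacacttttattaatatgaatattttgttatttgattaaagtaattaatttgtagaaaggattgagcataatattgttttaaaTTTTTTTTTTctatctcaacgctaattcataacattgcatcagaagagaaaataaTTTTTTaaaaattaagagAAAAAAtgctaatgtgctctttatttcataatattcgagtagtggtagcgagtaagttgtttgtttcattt
spir, chr2L:20310969-20311218, plus strand: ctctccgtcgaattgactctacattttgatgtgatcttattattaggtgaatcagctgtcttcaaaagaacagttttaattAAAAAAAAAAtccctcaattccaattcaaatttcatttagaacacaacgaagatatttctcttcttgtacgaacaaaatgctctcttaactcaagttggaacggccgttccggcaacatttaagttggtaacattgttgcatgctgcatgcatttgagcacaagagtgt
Proc-R, chrX:4707666-4707915, plus strand: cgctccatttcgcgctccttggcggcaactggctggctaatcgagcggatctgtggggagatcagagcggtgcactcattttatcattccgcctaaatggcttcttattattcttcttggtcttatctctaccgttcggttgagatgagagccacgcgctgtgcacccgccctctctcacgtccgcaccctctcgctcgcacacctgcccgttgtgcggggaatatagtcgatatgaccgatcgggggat
PVRAP, chr3L:5996958-5997207, plus strand: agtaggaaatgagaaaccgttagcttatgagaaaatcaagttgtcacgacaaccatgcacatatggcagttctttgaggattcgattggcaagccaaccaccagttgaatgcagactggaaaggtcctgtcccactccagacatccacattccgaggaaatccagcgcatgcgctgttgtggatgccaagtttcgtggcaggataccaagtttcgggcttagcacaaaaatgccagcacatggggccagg
CG3222, chr3L:9598738-9598987, plus strand: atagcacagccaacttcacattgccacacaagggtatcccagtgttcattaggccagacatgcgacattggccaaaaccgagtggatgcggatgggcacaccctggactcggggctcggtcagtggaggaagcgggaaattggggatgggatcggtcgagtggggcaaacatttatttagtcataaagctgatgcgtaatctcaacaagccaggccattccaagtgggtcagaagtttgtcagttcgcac
centre of the intergenic bin chr3L:40001-45000, chr3L:42376-42625, plus strand: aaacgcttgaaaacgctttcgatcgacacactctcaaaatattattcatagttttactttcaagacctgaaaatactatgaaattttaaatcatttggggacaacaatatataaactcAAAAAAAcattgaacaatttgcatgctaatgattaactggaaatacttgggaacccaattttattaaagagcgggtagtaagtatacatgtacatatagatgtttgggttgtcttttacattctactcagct
GC content was 22.4% upstream of for, 35.6% upstream of spir and 30.8% in the bin, against 49.2% upstream of PVRAP and 52.4% upstream of CG3222. Proc-R did not follow this order, at 56.0% and with no run. The other named germline-higher promoters had 31.6% (l(2)gl), 32% (CG9674) and 38.0% (fend), of which fend and CG9674 hold no run. The centres of both named 2L bins had 44.8%. Median GC content upstream was 35.0% at the 22 promoters called higher in germline and 36.8% over all tested. A run of this kind lay within 250 bp upstream at 10 of those 22 (45.45%), against 45.4% of all promoters tested. When all promoters were ordered by their difference, the share with a run was 39.24% in quintile 1, with the lowest values, and 53.14% in quintile 5, with the highest.

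Germline libraries held 9989627 to 18199704 fragments on the chromosomes and cyst libraries 5165463 to 14826327, the lowest being the IP of cyst replicate 1. At promoters germline replicate 2 stood apart from the other 3 preparations. Across promoters the Spearman correlation of log2 IP/input was 0.39 between the germline pairs and 0.74 between the cyst pairs, while germline pair 1 correlated at 0.63 and 0.70 with the cyst pairs and germline pair 2 at 0.22 and 0.21. Over gene bodies the germline pairs correlated at 0.58, germline pair 1 with the cyst pairs at 0.56 and 0.62, and germline pair 2 at 0.35 and 0.39. Over intergenic bins these values lay closer, at 0.50, at 0.57 and 0.60, and at 0.49 and 0.52. Features share libraries and base composition, so these are descriptions. For named genes whose call is lost, or whose called difference moves by over 1.5 times, without germline replicate 2, that value or p is therefore given too.

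The label of the mark was checked on heterochromatin. Unplaced scaffolds of the assembly, which are mostly repeats, had a log2 IP/input of 0.28 and 0.57 in germline and 0.37 and 0.36 in cyst tumours. On the Y, relative to chromosomes 2 and 3, it was 0.28 and 0.45 in germline and 0.34 and 0.39 in cyst tumours. As a median over 5-kb bins the Y had only 0.10 and 0.23 in germline and 0.16 and 0.17 in cyst tumours. Chromosome 4 lay at -0.13 and -0.01 in germline and -0.26 and -0.08 in cyst tumours, below chromosomes 2 and 3 in every preparation. In these regions, where the mark is known to be dense, IP exceeded input by at most 0.57 on the log2 scale. The cell type labels were checked on H3K4me3 at promoters, from other preparations of the same tumours. For the germline genes vas, nanos, bam, bgcn and ovo the difference between germline and cyst tumours ran from -0.23 (bam) to 0.53 (ovo), and for the cyst lineage genes tj, zfh1, eya, chinmo and Socs36E from -0.64 (chinmo) to 0.70 (zfh1). The direction was mixed within both marker groups, and H3K4me3 at them did not separate the tumour types. For H3K27me3, the Polycomb mark, only replicates 1 and 2 were read at these promoters, and replicate 3 of each tumour type was left out. The promoter differences were 1.79 at Socs36E, 1.68 at zfh1 and 1.15 at tj, against -0.27 at eya and -0.43 at chinmo. Among the germline genes they ran from -0.64 (vas) to 1.03 (ovo). Germline replicates 1 and 2 gave 1.61 and -0.06 at tj, 1.665 and 0.55 at zfh1 and 0.50 and 0.03 at Socs36E. Cyst replicates gave -0.68 and -0.07 at tj, -1.14 and -0.01 at zfh1 and -1.73 and -1.315 at Socs36E. The IP of germline replicate 1 was thin, at 942943 fragments, and its part in these differences was not tested. Over all promoters the median H3K27me3 difference was 0.10.

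Promoters had higher log2 IP/input in germline tumours, while gene bodies and intergenic bins were almost level. The median promoter had -0.21 and -0.04 in germline and -0.28 and -0.33 in cyst tumours, a difference of 0.18. The germline values lay above the cyst values, and germline replicate 2 was highest. Without that replicate the difference was 0.09. The median gene body had -0.11 and -0.09 in germline and -0.06 and -0.08 in cyst tumours, a difference of -0.03. The median intergenic bin had 0.14 and 0.13 in germline and 0.10 and 0.10 in cyst tumours, a difference of 0.04. For each of these medians the exact two-sided permutation p was 0.333, the smallest that 2 pairs against 2 can give. Gene bodies share their first 500 bp with the promoter windows, and without those the median gene body difference was -0.07.

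**Figure D1:**
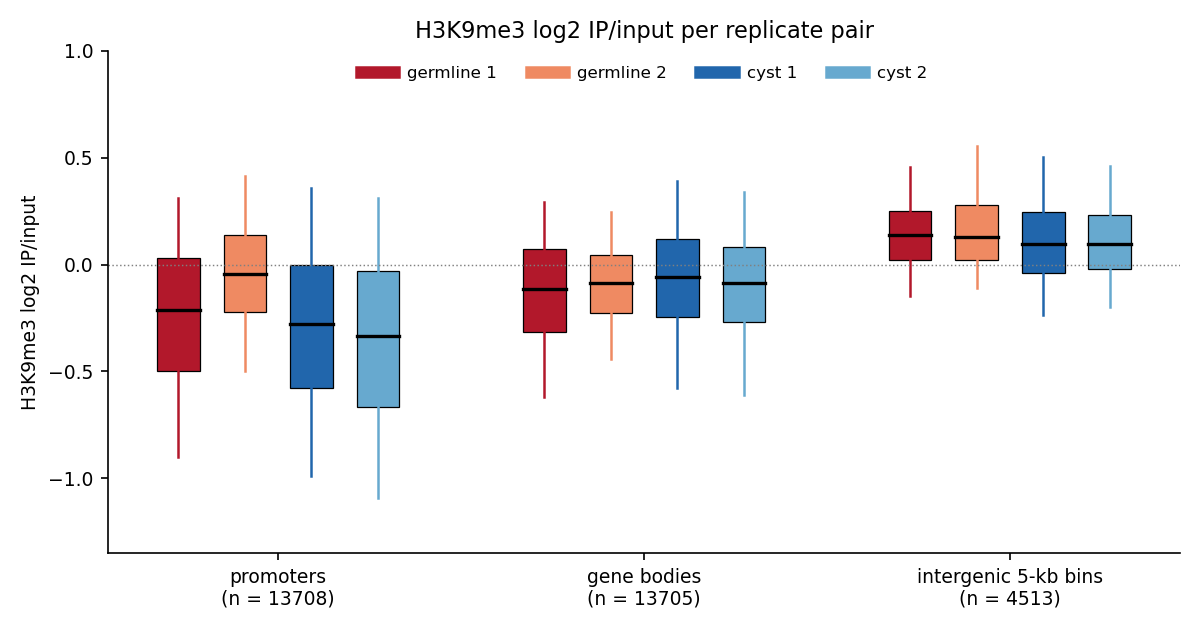
Log2 IP/input (vertical axis) in promoters, gene bodies and intergenic 5-kb bins, with 1 box per preparation. The line is the median, the box the interquartile range, and the whiskers span percentiles 5 to 95 of the features. Germline preparation 2 has the highest promoter median (-0.04), and the gene-body and intergenic medians of the 4 preparations lie close together.

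At the median promoter the tumour types lay apart in the input and not in the IP. The median promoter signal, scaled by the authors to an autosomal median of 1, was 0.84 and 0.95 in germline IP and 0.93 and 0.93 in cyst IP libraries. In the inputs it was 1.03 and 0.98 in germline and 1.14 and 1.21 in cyst tumours. The IP values overlapped and the input values did not, with germline inputs lower.

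Around 13707 start sites the difference was largest just upstream of the start. In the 200 bp upstream, log2 IP/input was -0.23 and 0.05 in germline and -0.42 and -0.45 in cyst tumours, a difference of 0.34. The mean input there was 0.94 and 0.89 in germline and 1.19 and 1.22 in cyst tumours, and the mean IP signal was 0.81 and 0.92 in germline and 0.89 and 0.89 in cyst tumours. Input again separated the tumour types and IP did not. From 500 to 1000 bp downstream the difference was 0.03, and the preparations overlapped. The 200-bp windows were chosen after the profile was seen.

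**Figure D2:**
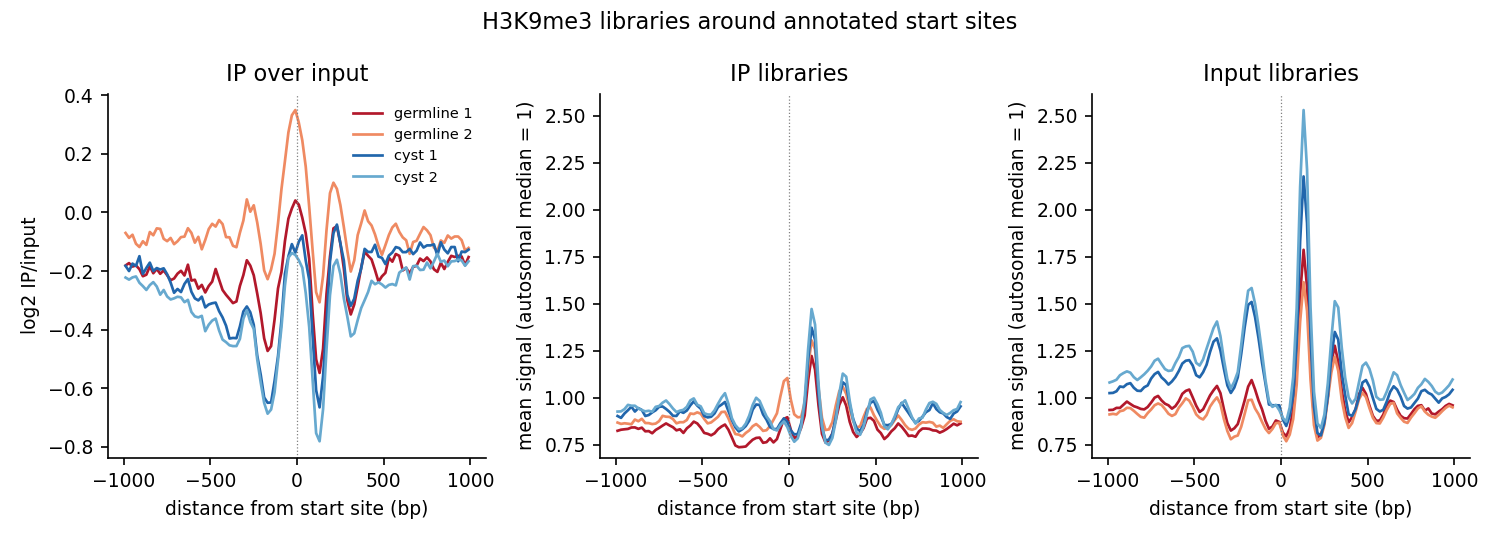
Mean profiles around annotated start sites (horizontal axis, distance in bp), with 1 line per preparation. Panels from left to right show log2 IP/input, the IP signal and the input signal (autosomal median of 1). Cyst inputs lie above germline inputs upstream of the start (1.19 and 1.22 against 0.94 and 0.89 in germline over 200 bp), where the IP lines overlap. From 500 to 1000 bp downstream the germline IP lines lie below the cyst ones (0.83 and 0.86 against 0.91 and 0.93 in cyst tumours).

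Single promoters were tested with limma over the 4 pairs (Benjamini-Hochberg adjustment over all promoters, threshold 0.05). At 22 promoters (0.16% of those tested) log2 IP/input was higher in germline, and at 0 (0%) higher in cyst tumours. At an unadjusted p under 0.05 the counts were 2016 (14.7%) and 92 (0.671%), and edgeR called 24 and 0. Centring each pair on its class median, which takes 0.18 off every promoter difference, gave 141 and 17, and a fit without the pairing of IP and input (no replicate block) gave 228 and 1. The pairs of the tumour types did not overlap at 35.7% of promoters with germline higher and at 9.73% with cyst higher. Leaving out germline replicate 2 or either cyst replicate, or correcting for GC content, left 0 promoters called, and none of the 22 was called in each of the 4 leave-one-out fits. Germline inputs lay below cyst inputs at all 22, against 63.9% of all promoters, and germline IP lay above cyst IP at 18, against 16.3%. Both libraries enter the choice of these promoters, so the counts describe the calls and test nothing.

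The largest promoter difference was at l(2)gl (FBgn0002121), a tumour suppressor of cell polarity near the end of arm 2L. Its promoter (chr2L:20876-21875) had 0.41 and 0.71 in germline and -1.27 and -1.33 in cyst tumours, a difference of 1.86 ± 0.29 (SE, limma adjusted p = 0.0123). Its input signal was 0.09 and 0.07 in germline and 0.52 and 0.47 in cyst tumours, with IP signals of 0.16 and 0.17 in germline and 0.16 and 0.13 in cyst tumours. The IP values overlapped and the germline inputs were lower. Coverage was thin, at a mean of 23.6 fragments over the 8 libraries, and the part of a strain difference in the DNA was not tested.

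The other 5 named promoters were covered more deeply. At for (FBgn0000721, chr2L:3656453-3657452), the gene of a cGMP-dependent protein kinase, log2 IP/input was 0.10 and 0.79 in germline and -1.24 and -0.58 in cyst tumours (difference 1.36, limma adjusted p = 0.0387). At spir (FBgn0003475, chr2L:20310719-20311718), an actin nucleator, it was -0.30 and 0.59 in germline and -1.09 and -1.22 in cyst tumours (1.3, limma adjusted p = 0.0373). Both promoters are the AT-rich ones printed above. At fend the difference was 1.44, at Proc-R, the proctolin receptor gene, 1.43 and at CG9674 1.3, each with a limma adjusted p of 0.0373. At these 5 promoters the higher germline value was that of replicate 2, and no pair of one tumour type overlapped the other. Without germline replicate 2 the differences at the 6 were 1.71 at l(2)gl, 1.08 at fend, 1.17 at Proc-R, 1.01 at for, 1.02 at CG9674 and 0.85 at spir, with limma adjusted p from 0.17 to 0.264. The 4 named promoters with cyst higher did not pass: PVRAP, encoding an adaptor of the receptor Pvr, had a difference of -0.81 (limma adjusted p = 0.096), Atx-1 -0.79 (0.16), CG13081 -0.78 (0.096) and CG3222 -0.77 (0.102).

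Gene bodies gave calls in both directions. By limma, 225 (1.64%) were higher in germline and 150 (1.09%) higher in cyst tumours, with 1020 (7.44%) and 1108 (8.08%) at an unadjusted p under 0.05, and pairs did not overlap at 19.8% and 26.3% of all gene bodies. Centred on the class median the counts were 372 and 151, and without the pairing of IP and input they were 31 and 17. Of the 225, the call was kept at 17 in every leave-one-out fit and at 68 with GC content corrected for, and of the 150 at 2 and 20. Among the 375 called gene bodies 40 overlap another one on the chromosome, so they are not all separate loci. Fragments carry no strand, and overlapping genes cannot be told apart.

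The input separated the tumour types at germline-higher gene bodies and the IP at cyst-higher ones. Germline inputs lay below cyst inputs at 224 of the 225, against 46.4% of all gene bodies, while germline IP lay above cyst IP at 36 (16%, against 19.4% of all) and below it at 81 (36%, against 44.5%). At the 150 cyst-higher gene bodies the cyst IP lay above the germline IP at 137, against 44.5% of all, and germline inputs lay above cyst inputs at 79 (52.7%, against 28% of all) and below them at 25. The choice of gene bodies uses both libraries, so these counts describe the calls and test nothing.

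The 17 and 2 gene bodies called in each of the 4 leave-one-out fits were picked after their values were seen. Among them are the overlapping ferritin genes of arm 3R, whose products form the iron-storing shell of ferritin. Fer2LCH (FBgn0015221, light chain) had -0.10 and 0.47 in germline and -0.69 and -0.68 in cyst tumours, a difference of 0.87 ± 0.13 (SE, limma adjusted p = 3.36e-05). Fer1HCH (FBgn0015222, heavy chain) had 0.11 and 0.52 in germline and -0.47 and -0.53 in cyst tumours, a difference of 0.81 ± 0.13. Their inputs were lower in germline, at 1.11 and 0.99 for Fer2LCH against 1.63 and 1.68 in cyst tumours, and the IP was 1.03 and 1.40 in germline and 0.97 and 1.01 in cyst tumours. Both remained past the threshold with GC content corrected for.

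Other members of this set follow. Amnesiac (amn, a neuropeptide gene) had -0.02 and 0.40 in germline and -0.56 and -0.82 in cyst tumours, a difference of 0.88. Cdk4, the kinase partner of cyclin D, had -0.23 and 0.26 in germline and -0.55 and -0.63 in cyst tumours, a difference of 0.61 (0.37 without germline replicate 2), and its promoter was also among the 22 called. The others higher in germline included Lk6 (a kinase of the translation factor eIF4E, 0.45), PRAS40 (a substrate of TOR, 0.43), Mnt (a partner of Max, 0.42), CHES-1-like (a forkhead factor, 0.46) and Tis11 (an mRNA decay factor, 0.40). Without germline replicate 2 Lk6 differed by 0.28 and CHES-1-like by 0.30. In none of these did the pairs overlap, and germline inputs lay below cyst inputs in all 7.

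The cyst libraries of both kinds had little signal at 1 gene body of the set. At mthl8 (FBgn0052475, chr3L:22428-26308), a receptor gene of the methuselah family near the end of arm 3L, IP signal was 0.93 and 1.05 in germline and 0.14 and 0.12 in cyst tumours. Its input was 0.65 and 0.60 in germline and 0.17 and 0.17 in cyst tumours. The log2 IP/input of 0.46 and 0.71 in germline and -0.21 and -0.29 in cyst tumours thus rests on a stretch that was scarce in cyst libraries of either kind.

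The 2 cyst-higher gene bodies called in every leave-one-out fit lie on 3R. Tnks (tankyrase, a poly(ADP-ribose) polymerase) had -0.15 and -0.23 in germline and 0.25 and 0.26 in cyst tumours, a difference of -0.45 ± 0.08 (SE, limma adjusted p = 0.000518). Its IP was 0.93 and 0.93 in germline and 1.36 and 1.56 in cyst tumours, and its input 1.05 and 1.11 in germline and 1.13 and 1.29 in cyst tumours. Here the IP values lay apart by more than the inputs. At obe log2 IP/input was -0.14 and -0.32 in germline and 0.23 and 0.25 in cyst tumours, a difference of -0.47.

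**Figure D3:**
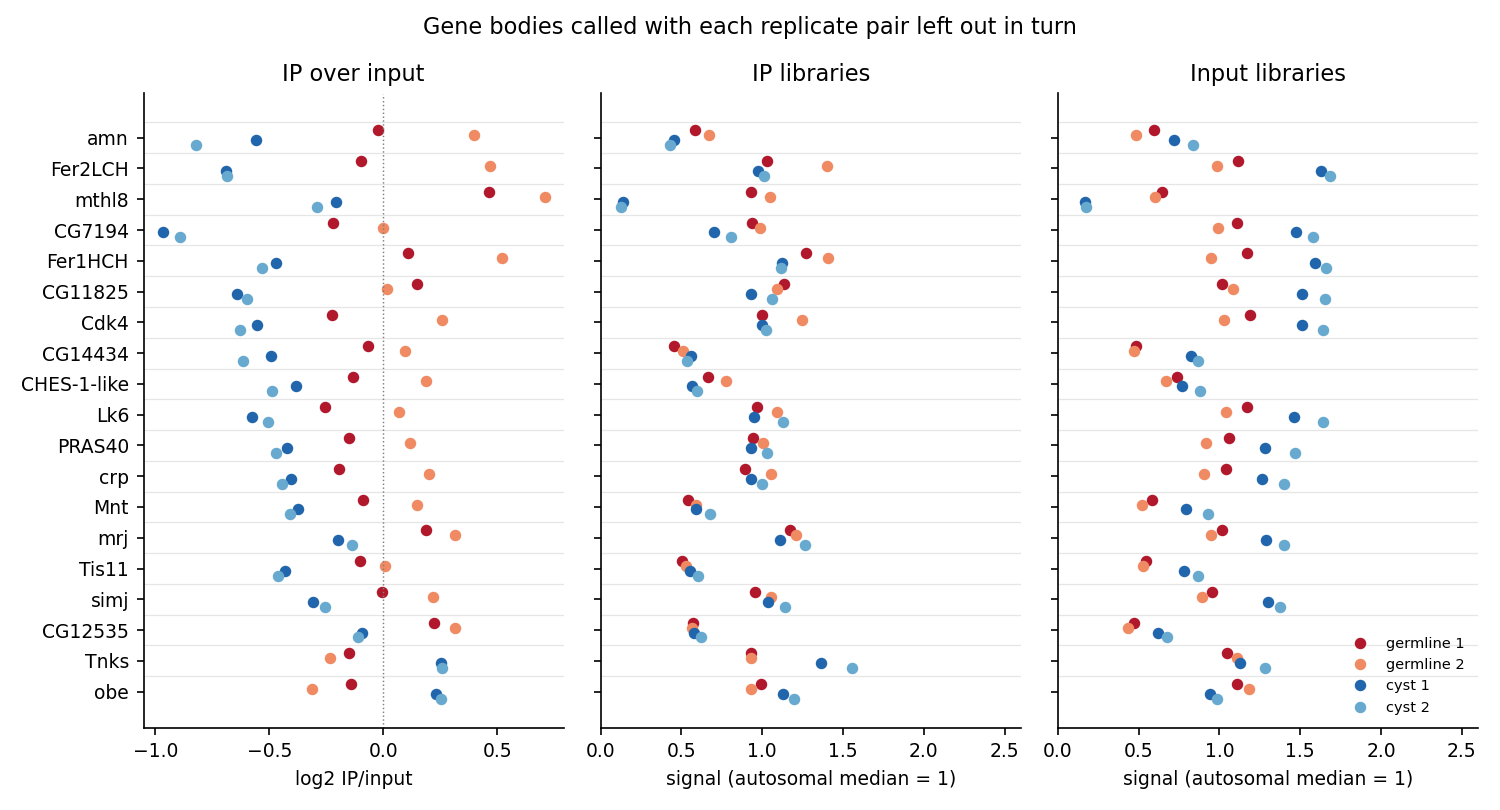
Gene bodies called with each preparation left out in turn (rows), with 1 point per preparation. Panels from left to right show log2 IP/input, the IP signal and the input signal (autosomal median of 1). Germline points lie right of cyst points in the left panel except at Tnks and obe, and cyst inputs lie right of germline inputs at all but mthl8 and obe.

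The named gene bodies were led by CG33169, which had -0.10 and 0.79 in germline and -1.0 and -0.92 in cyst tumours, a difference of 1.31 (limma adjusted p = 0.000654). CG30016 (1.22), Dso2 (an antimicrobial peptide gene, 1.15), CG8860 (1.1), CG44174 (1.01) and CG34242 (0.97) followed, and no pairs overlapped at any of the 6. Without germline replicate 2 the differences were 0.86 at CG33169, 0.97 at Dso2, 0.69 at CG8860, 0.94 at CG44174 and 0.44 at CG34242, and of these 6 only CG30016 passed (limma adjusted p = 0.00934). Dso2 was called in none of the 4 leave-one-out fits, nor by edgeR (adjusted p = 0.0932) or with GC content corrected for (limma adjusted p = 0.174). Except at CG30016, whose germline values were -0.38 and -0.55, germline replicate 2 gave the higher value. The cyst values at CG30016 were -2.04 and -1.33, and without cyst replicate 1 the difference there was 0.87. In cyst tumours the largest were CG13014 (-0.97), the cuticle gene Cpr47Eb (-0.90), the channel gene brv3 (-0.86), the proteasome ATPase gene Rpt3 (-0.78), and CG42634 and CG42635, which share the same coordinates (-0.78). The germline values at brv3 were -0.885 and -0.24, and without germline replicate 1 the difference there was -0.54. At Rpt3 log2 IP/input was -0.55 and -0.63 in germline and 0.20 and 0.19 in cyst tumours, and it was called in none of the leave-one-out fits. Of these 6 only brv3 passed without germline replicate 2, and CG42634 and CG42635 then differed by -0.46.

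Base composition moved with the difference in every class. Across features, the Spearman correlation of the difference with GC content was -0.32 in promoters, -0.48 in gene bodies and -0.27 in intergenic bins. From quintile 1 of gene bodies by GC content to quintile 5, the median difference went through 0.10, 0.03, -0.03, -0.09 and -0.17, with 154 germline-higher and 1 cyst-higher call in quintile 1 and 2 and 75 in quintile 5. The promoter medians were 0.30, 0.23, 0.17, 0.13 and 0.01. Log2 IP/input itself climbed with GC content in the cyst pairs (Spearman 0.36 and 0.29 over promoters) more than in the germline pairs (0.17 and 0.05). With GC content corrected for, 0 promoters remained called. The median promoter difference was then 0.19 (0.18 uncorrected), that at fend 1.45 and that at l(2)gl 1.73 (limma adjusted p = 0.0598). At an unadjusted p under 0.05, 1940 promoters were germline-higher. The correction adds the median of each pair's fitted GC trend back to that pair, so it keeps the offset between pairs. The median difference and the unadjusted count carry this offset and cannot show whether it depends on GC content. Gene body calls numbered 77 with germline higher and 33 with cyst higher.

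**Figure D4:**
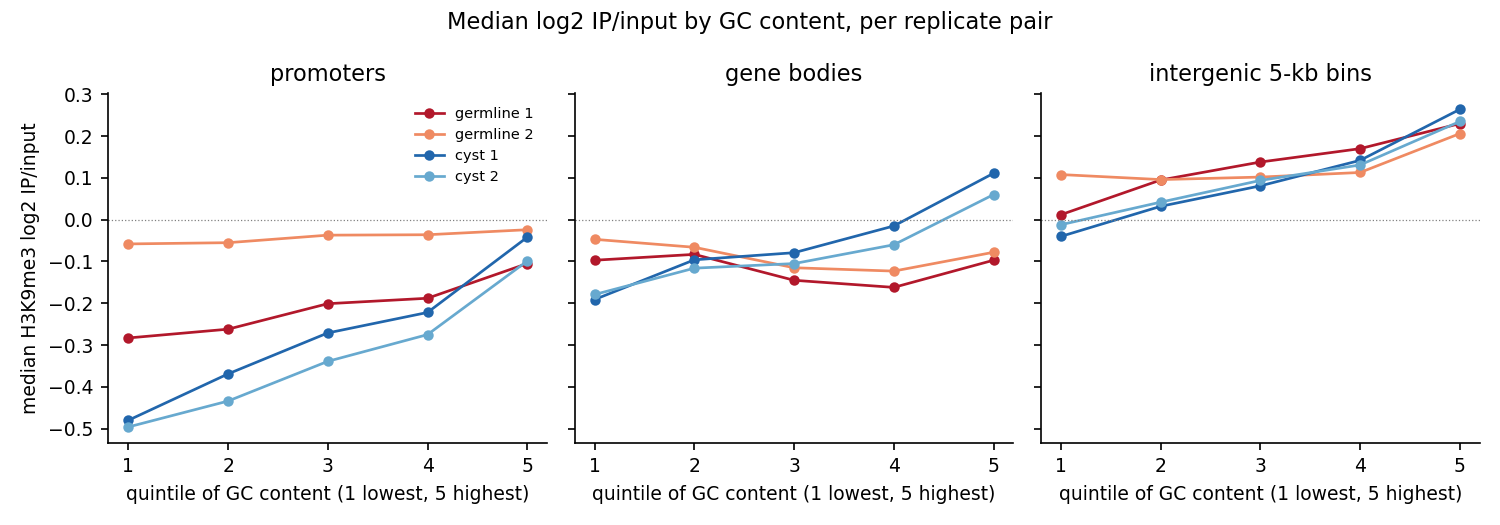
Median log2 IP/input (vertical axis) by quintile of GC content (horizontal axis, 1 lowest to 5 highest), with 1 line per preparation. Lines of the cyst preparations rise with GC content in all 3 panels, and in promoters the line of germline preparation 2 stays between -0.06 and -0.02.

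Called gene bodies also differed from the rest in length and in the other marks. Median length was 8840 bp in the 225 germline-higher and 3619 bp in the 150 cyst-higher gene bodies, against 2206 bp over all tested. Median coverage was 961.2 and 396 fragments, against 232.1 over all, and the part of coverage in the calls was not tested. Median H3K4me3 log2 IP/input was -0.10 in germline and -0.02 in cyst tumours at germline-higher gene bodies, and 0.54 and 0.71 at cyst-higher ones. For H3K27me3 it was -0.34 and -0.33 at germline-higher and 0.32 and 0.50 at cyst-higher gene bodies. Over all gene bodies the germline and cyst medians were 0.26 and 0.29 for H3K4me3 and 0.14 and 0.08 for H3K27me3. Of the germline-higher calls 181 lay in quintile 1 of gene bodies by H3K27me3 (lowest), and of the cyst-higher calls 86 lay in quintile 5 (highest). Those marks came from other preparations, and the H3K27me3 values over gene bodies include replicate 3 of each tumour type. GC content differs along the same axis (40.4% and 49.9% in median at germline-higher and cyst-higher gene bodies).

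Between genes, limma called 9 of 4513 bins (0.199%) higher in germline and 0 (0%) higher in cyst tumours, with 344 (7.62%) and 97 (2.15%) at an unadjusted p under 0.05 and 5 and 0 called by edgeR. Centred on the class median, 9 and 3 were called, and without the pairing of IP and input 0 and 0. Pairs did not overlap at 26.8% of the bins with germline higher and at 12.5% with cyst higher. All 9 kept their call with GC content corrected for, and 0 bins were called without germline replicate 2 or without either cyst replicate. Of the 9, 4 lie next to the telomere of 3L, 3 on 2L and 2 on 2R. Mobile elements cover 88.98% of chr2R:4590001-4595000, 84.80% of chr2L:21395001-21400000 and 57.52% of chr2L:22085001-22090000. They cover 8.02%, 2.14% and 0% of the named 3L bins, and the median over the 9 is 8.02%. The largest difference was at chr2R:4590001-4595000, with 0.10 and 0.38 in germline and -0.39 and -0.42 in cyst tumours (0.64, limma adjusted p = 0.00953).

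The named bins of arm 3L lay in its outer 130 kb. At chr3L:40001-45000, whose centre is printed above, log2 IP/input was 0.16 and 0.39 in germline and -0.39 and -0.27 in cyst tumours, a difference of 0.60 (limma adjusted p = 0.00301). The IP signal there was 0.99 and 1.1 in germline and 0.98 and 1.09 in cyst tumours, and the input was 0.87 and 0.81 in germline and 1.31 and 1.33 in cyst tumours. The inputs did not overlap between the tumour types, and the IP values did. Over the 23 bins tested in this stretch the median was 0.22 and 0.35 in germline and -0.10 and -0.01 in cyst tumours. The pairs did not overlap at 19 of 23 bins with germline higher and at 0 with cyst higher, against 28.6% and 16.4% of all 5-kb bins. In the next 130 kb the counts were 6 and 6 of 26. The stretches differ in kind: 15 of the 23 outer bins held no gene, while genes covered 76.82% or more of each of the 26. GC content reached 44.92% in the outer bins and 51.22% in the next, and the part of genes and GC content was not tested. The borders of the stretch were set after the values were seen, and no other arm end was read at this width. Over 1000 kb the difference was 0.11 next to the telomere of 3L. Across all arm ends at that width it ran from 0.002 (2R, telomere) to 0.15 (X, centromere), with 0.13 at the centromere of 2L.

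**Figure D5:**
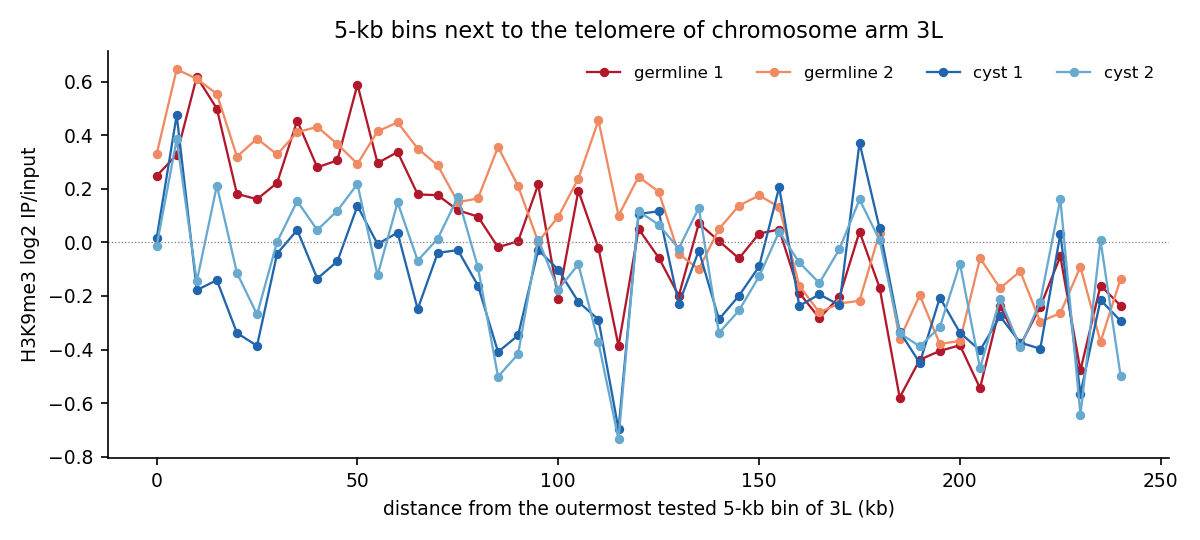
Log2 IP/input (vertical axis) in 5-kb bins from the outermost tested bin of arm 3L inwards (horizontal axis, distance in kb), with 1 line per preparation. The axis starts at chr3L:15001. Both germline lines lie above both cyst lines at 19 of the 23 bins up to chr3L:130000 (medians 0.22 and 0.35 against -0.10 and -0.01) and mix with them further in.

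No intergenic bin passed with cyst higher. The largest such differences were -0.49 at chrX:115001-120000, -0.49 at chrX:21940001-21945000, -0.44 at chr2R:3705001-3710000 and -0.39 at chr3L:5850001-5855000, with limma adjusted p from 0.0821 to 0.347. In both X bins sequence was scarce in cyst libraries. At chrX:21940001-21945000 the input signal was 0.33 and 0.31 in germline and 0.01 and 0.02 in cyst tumours, and the IP 0.27 and 0.37 in germline and 0.09 and 0.04 in cyst tumours.

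By chromosome, relative to chromosomes 2 and 3, the X had 0.08 and 0.11 in germline and 0.05 and 0.06 in cyst tumours, a difference of 0.04 with no overlap (exact permutation p = 0.333, the smallest possible). On the Y the mean was 0.36 in both tumour types. On chromosome 4 the difference was 0.09, the pairs overlapped and the exact permutation p was 0.667. Chromosome 4 still held the highest share of called gene bodies. Of its 80, 13 (16.25%, against 1.64% of all) were germline-higher and 0 cyst-higher (against 1.09% of all). Its promoters had medians of -0.32 and -0.02 in germline and -0.78 and -0.58 in cyst tumours, and 60 of 79 did not overlap (75.9%, against 35.7% of all promoters). limma and edgeR called 0 of them, with 39 germline-higher at an unadjusted p under 0.05, against 14.7% of all.

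Among the 13 called genes of chromosome 4, the glutamate receptor gene mGluR had -0.02 and 0.05 in germline and -0.47 and -0.33 in cyst tumours, a difference of 0.42 (limma adjusted p = 0.000181). The largest difference was 0.72 at CG46466, followed by 0.51 at mav, a ligand of the TGF-beta family, and the lowest was 0.19 at bt, the muscle protein projectin. Without germline replicate 2 mGluR and bt passed, and CG46466 (0.52, limma adjusted p = 0.128) and mav (0.41, limma adjusted p = 0.0894) did not. None of the 13 kept its call with GC content corrected for (lowest limma adjusted p = 0.0849) or in all leave-one-out fits. Median GC content of chromosome 4 gene bodies was 34.6%, against 45.7% over all tested. The input of the whole chromosome relative to chromosomes 2 and 3 was 0.18 and 0.01 on the log2 scale in germline and 0.49 and 0.56 in cyst tumours.

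Mobile elements were summed by family, for 85 families with at least 10 copies and 200 fragments. The pairs did not overlap at 46 with germline higher (54.1%) and at 5 with cyst higher (5.88%), and 34 families overlapped. Over all 5-kb bins the shares were 28.6% and 16.4%, but a family sums many copies, so these shares are not like for like. The difference was 0.05 over bins with 50% or more in mobile elements. It was 0.08 over bins with 1% to under 50% and 0.03 over bins with under 1%. The median family had 0.18 and 0.29 in germline and 0.12 and 0.12 in cyst tumours, a difference of 0.11. Among LTR retrotransposons mdg3 had 0.37 and 0.45 in germline and 0.02 and 0.09 in cyst tumours, and 1731 had 0.37 and 0.53 in germline and 0.18 and 0.05 in cyst tumours. At the DNA transposon 1360, frequent on chromosome 4, germline pairs had 0.08 and 0.28 and cyst pairs -0.14 and -0.06. The telomeric element HeT-A overlapped, with -0.33 and 0.03 in germline and -0.27 and -0.32 in cyst tumours. gypsy8 went the other way, with 0.40 and 0.45 in germline and 0.60 and 0.58 in cyst tumours. Reads of repeated copies cannot be placed for certain, so a family's value is a sum over its annotated copies.

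Genes of the lineages were then read from fixed lists. Of 20 germline and piRNA genes 1 gene body was called with germline higher and 1 with cyst higher, of 15 cyst lineage genes 1 and 0, against 1.64% and 1.09% of all. bgcn (FBgn0004581), needed with bam for germline differentiation, had -0.27 and -0.27 in germline and 0.22 and 0.03 in cyst tumours, a difference of -0.40 ± 0.10 (SE, limma adjusted p = 0.014). Without cyst replicate 1 bgcn differed by -0.30. The other called germline-list gene was pum, a translational repressor, with a difference of 0.18. zfh1 (FBgn0004606), a transcription factor of cyst stem cells, had 0.16 and 0.32 in germline and 0.09 and -0.04 in cyst tumours, a difference of 0.22 ± 0.07 (SE, limma adjusted p = 0.0475). With GC content corrected for, neither bgcn (-0.25, limma adjusted p = 0.286) nor zfh1 (0.23, limma adjusted p = 0.0591) passed, and the difference at zfh1 was not smaller. Without germline replicate 2 zfh1 differed by 0.14 (limma adjusted p = 0.32).

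Other lineage genes did not pass. tj, the cyst lineage factor whose promoter drives the cyst transgene, had 0.24 and 0.21 in germline and 0.07 and -0.41 in cyst tumours (difference 0.40, limma adjusted p = 0.113), and 0.0415 with GC content corrected for. The gene body differences were 0.07 at vas, 0.09 at nanos, -0.01 at bam, -0.06 at upd1 and 0.18 at Phf7. At upd1 both tumour types had high values, 0.47 and 0.42 in germline and 0.65 and 0.37 in cyst tumours. Among 20 spermatocyte genes limma and edgeR called 0 gene bodies. At an unadjusted p under 0.05, 1 was germline-higher and 4 were cyst-higher, against 7.44% and 8.08% of all gene bodies. Of 8 sex identity genes 1 gene body was called with germline higher, against 1.64% of all. It was Sxl, the female switch gene, with -0.07 and -0.04 in germline and -0.36 and -0.32 in cyst tumours (0.28, limma adjusted p = 0.0178).

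Among genes embedded in heterochromatin, limma and edgeR called 0 of 17 promoters. All 17 had a positive difference, with a median of 0.54 against 0.16 over all promoters. Pairs did not overlap at 14, against 35.7% of all promoters, and 11 had an unadjusted p under 0.05, against 14.7%. Median GC content of these promoters was 32.3%, against 42.3% over all, and its part in the difference was not tested. At the promoter of rl, the ERK kinase gene, log2 IP/input was -0.12 and 0.82 in germline and -0.65 and -0.68 in cyst tumours (1.02, limma adjusted p = 0.0697, and 0.55 without germline replicate 2). At that of lt it was -0.66 and 0.06 in germline and -0.86 and -0.94 in cyst tumours, a difference of 0.60, or 0.24 without germline replicate 2. Without that replicate the list's median promoter difference was 0.24. Over gene bodies the median difference was 0.09, and 1 of 17 was called, against 1.64% of all. It was RpL5, a ribosomal protein gene (0.40, limma adjusted p = 0.0309), with a difference of 0.23 without germline replicate 2.

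Housekeeping promoters had a median difference of 0.40 over 10 genes, and 0.04 without germline replicate 2. At Act5C, a cytoplasmic actin, the gene body had -0.38 and 0.10 in germline and -0.72 and -0.64 in cyst tumours (0.54, limma adjusted p = 0.0204), and eEF1alpha1, a translation factor, differed by 0.56 (limma adjusted p = 0.00192). Without germline replicate 2 Act5C differed by 0.30 (limma adjusted p = 0.437) and eEF1alpha1 by 0.38 (limma adjusted p = 0.102). Among 14 Polycomb targets, which include the Hox genes, median gene body values were 0.24 in germline and 0.29 in cyst tumours. limma and edgeR called 0 of them, with 1 germline-higher at an unadjusted p under 0.05, against 7.44% of all gene bodies. Of 15 genes of H3K9 methylation and HP1 both called 0 gene bodies. At an unadjusted p under 0.05, 1 was germline-higher and 4 were cyst-higher, against 7.44% and 8.08% of all. The gene of eggless, egg, had a difference of -0.20. Of 12 Y fertility genes 0 gene bodies were called by either, with 0 at an unadjusted p under 0.05 and a median difference of 0.01. Of the 20 listed genes of chromosome 4, 4 gene bodies were called with germline higher and 0 with cyst higher. The shares were 1.64% and 1.09% of all gene bodies, and 16.25% and 0% of those tested on chromosome 4. No promoter of any of the 10 lists was called by limma or edgeR.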

How the data were processed

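The authors deposited 1 signal column per library, in windows of 40 bp spaced 20 bp apart, per the file headers. Bowtie2 2.4.5 and dm6 are named in the submitters' processing notes, and filters on reads or fragment size are not stated there. All deposited signal values are whole multiples of a step that is constant within a library (tolerance 0.01), and the autosomal median is 1. Scaling of this kind takes out depth, and with it a gain or loss of the mark over the whole genome. Fragments were recovered from the overlapping windows. The ends of 7 of 7 chromosomes equal those of Release 6, whose annotation (Ensembl, BDGP6) was used.

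The values tested were log2(signal + 0.1) of the IP minus that of the input with the same number, so differences at low signal are understated. limma 3.58.1 (R 4.3.3) compared germline minus cyst over all features of a class with a mean of 10 or more fragments. The variance of each feature was drawn towards a trend on mean fragments. The median weight of that trend was 23.56 degrees of freedom in promoters, 68.52 in gene bodies and 32.93 in intergenic bins. A printed SE can thus be smaller than the spread of the pairs at that feature. edgeR 4.0.16 on the recovered fragments, other pseudocounts, filters, windows and centring, a GC correction (lowess) and leaving out each pair were the alternatives. limma was also run on simulated counts, drawn independently for each library with no shift of a single preparation and no GC trend. That run cannot show how far such shifts or trends change the calls. IP and input of a number come from 1 solubilised chromatin, per the labels' protocols, so the pairing by replicate number is part of the main fit. The deviations of same-numbered IP and input libraries correlated at -0.25 (germline) and 0.06 (cyst) over promoters, at -0.14 and 0.14 over gene bodies and at 0.23 and 0.31 over intergenic bins. The negative germline values leave it unsettled whether the germline numbers are crossed, so each germline ratio rests on the labels' numbering.

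For 1 value per pair, two-sided exact permutation tests were used. Named features were, per class and direction, up to 6 with the largest difference past the threshold, with no overlap and a mean of 20 or more fragments, or, where none passed, 4 with an unadjusted p under 0.05, no overlap and 50 or more fragments, plus fixed genes of the lists. Lists held genes embedded in heterochromatin, Y fertility genes, chromosome 4 genes, germline and piRNA genes, spermatocyte genes, cyst lineage genes, genes of H3K9 methylation and HP1, sex identity genes, Polycomb targets and housekeeping genes. Members, lists and tests were chosen with earlier results of these data known. Only the annotated outermost start of a gene was used.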

Additional observations from a re-analysis of the deposited data

Results flagged for a closer look

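At each of the following features the difference between germline and cyst tumours passed the limma threshold (Benjamini-Hochberg adjusted p under 0.05) with no overlap between the pairs. All values are log2 IP/input, germline minus cyst. At promoters the difference was 1.86 at l(2)gl, 1.44 at fend, 1.43 at Proc-R, 1.36 at for, 1.3 at CG9674 and 1.3 at spir. Over gene bodies with germline higher it was 1.31 at CG33169, 1.22 at CG30016, 1.15 at Dso2, 1.1 at CG8860, 1.01 at CG44174, 0.97 at CG34242 and 0.22 at zfh1. With cyst higher it was -0.97 at CG13014, -0.90 at Cpr47Eb, -0.86 at brv3, -0.78 at Rpt3, -0.78 at CG42634 and at CG42635, and -0.40 at bgcn. In intergenic bins it was 0.64 at chr2R:4590001-4595000, 0.62 at chr3L:100001-105000, 0.60 at chr3L:40001-45000, 0.49 at chr3L:105001-110000, 0.48 at chr2L:22085001-22090000 and 0.47 at chr2L:21395001-21400000.

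Unplaced scaffolds, which no test of the report uses, had more IP than input in every preparation, and their log2 IP/input averaged 0.42 over the germline pairs and 0.36 over the cyst pairs. The germline mean rests on values of 0.28 and 0.57, and those of cyst tumours, 0.37 and 0.36, lie between them.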

How the results depend on the processing

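Counts are given as germline-higher and cyst-higher. Promoters (22 and 0) gave 228 and 1 with no replicate block, 261 and 1 with a pseudocount of 0.5, 141 and 17 when centred on the class median, 0 and 0 when GC-corrected, 51 and 0 in windows of 250 bp, and 0 to 2143 and 0 to 20 with each pair left out. The 2143 and 20 came without germline replicate 1, and the other 3 gave 0 and 0. Gene bodies (225 and 150) gave 31 and 17 with no replicate block, 372 and 151 when centred, 77 and 33 when GC-corrected, 234 and 449 without their first 500 bp, and 49 to 624 and 17 to 262 with each pair left out (624 and 262 without germline replicate 1, 66 and 63 without germline replicate 2, 49 and 17 without cyst replicate 1, 60 and 22 without cyst replicate 2). Intergenic bins (9 and 0) gave 0 and 0 with no replicate block, 5 and 0 with a pseudocount of 0.5 and with edgeR, 9 and 3 when centred, 20 and 0 when GC-corrected, 33 and 3 in bins with at most 10% in genes, and 0 to 68 and 0 to 6 with each pair left out, the highest without germline replicate 1. The cause was not tested. Centring on the class median takes 0.18 off every promoter difference. Gene bodies without their first 500 bp were read only for genes of 1500 bp or more, which left 9137 tested.

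Chosen after seeing the data, germline pairs crossed gave 1242 and 19 promoters, 457 and 400 gene bodies and 0 and 0 bins. The IP libraries alone gave 4 and 24, 811 and 2888, and 541 and 145, and the input libraries alone 833 and 6727, 2011 and 4153, and 1184 and 651.

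With each pair left out, the median promoter difference ranged from 0.09 to 0.26, the gene body one from -0.04 to -0.01, the intergenic one from 0.03 to 0.04, the X from 0.03 to 0.06, chromosome 4 from 0.00 to 0.18 and the Y from -0.0811 to 0.0808. The Y difference changed sign to 0.0808 without germline replicate 1, to 0.03 without cyst replicate 2 and to 0.000943 as a median over 5-kb bins. With 2 pairs per tumour type single values cannot reach an exact p under 0.333, and the IP of cyst replicate 1, at 5165463 fragments, limits the precision at short features.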
